A study of Caenorhabditis elegans with 2 samples.

Results

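PHA-4 regions beside tRNA genes are the places where the summit of a ChIP-seq region for PHA-4 lay inside a nuclear tRNA gene or within 200 bp of one. The data came from whole Caenorhabditis elegans L3 larvae of mixed sex, strain OP37, genotype unc-119(ed3) III; wgIs37, where wgIs37 is an insertion that targets pha-4 and gives an eGFP-tagged protein. The labels name the target as eGFP-pha-4 in one entry and the antibody as pha-4 in another, so which part of the protein was recognised, and whether untagged PHA-4 was too, is not settled. Both samples are biological replicates of this 1 group and carry the same mutation and insertion; there is no second genotype, treatment or time. The members were taken from the list called on both replicates pooled, which holds 30000 regions on build ce11, and 285 of them met the rule. They lay beside 291 of the 612 nuclear tRNA genes, because 29 regions were near 2 tRNA genes and 23 genes had more than 1 region. The annotation also holds 22 mitochondrial tRNA genes, and the pooled list had no region on the mitochondrial genome. In whole larvae, binding in many cells at a low level and binding in few cells at a high level cannot be told apart.

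A tRNA gene is short and is transcribed by RNA polymerase III. Its promoter lies inside the gene, in an A box and a B box that the factor TFIIIC binds; TFIIIC then places TFIIIB just upstream of the start, and a run of T after the gene ends transcription. Most tRNA genes of C. elegans occur in several identical copies spread over the genome, many of them in introns of protein-coding genes. PHA-4 is the worm's FoxA factor, a forkhead protein that specifies the pharynx and has roles in the gut, and FoxA proteins bind AT-rich forkhead words on DNA. No list from an untagged strain or from another factor was analysed here, so the signal that tRNA genes give without tagged PHA-4 does not stand beside these values.

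The following sequences show what the highest members look like. Each is the tRNA gene in capitals with 60 bases before and 20 after it, in the direction of transcription, from the RefSeq sequence of WBcel235, the same assembly as ce11; for R04A9.t1 the stretch before the gene is longer, so that it reaches the summit. They are the 6 highest members outside one chromosome whose sequences are not shown here, 5 of them on X and F52C9.t1 on III. R04A9.t1 carries glutamine and is at chrX:410188-410482, plus strand. C28G1.t1, for glutamate, is at chrX:8836053-8836204, plus strand. F52C9.t1, for threonine, is at chrIII:5305845-5305996, plus strand. C33G3.t2, for lysine, is at chrX:14063926-14064078, minus strand, and C04E7.t1, for leucine, at chrX:353235-353396, minus strand. F41D9.t3, for asparagine, is at chrX:8404439-8404591, plus strand.
R04A9.t1: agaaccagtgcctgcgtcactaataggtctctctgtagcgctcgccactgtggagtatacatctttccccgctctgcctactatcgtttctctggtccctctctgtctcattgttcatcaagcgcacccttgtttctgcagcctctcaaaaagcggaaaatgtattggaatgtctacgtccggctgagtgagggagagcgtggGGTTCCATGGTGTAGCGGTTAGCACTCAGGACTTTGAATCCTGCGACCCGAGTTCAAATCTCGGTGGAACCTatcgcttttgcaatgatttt
C28G1.t1: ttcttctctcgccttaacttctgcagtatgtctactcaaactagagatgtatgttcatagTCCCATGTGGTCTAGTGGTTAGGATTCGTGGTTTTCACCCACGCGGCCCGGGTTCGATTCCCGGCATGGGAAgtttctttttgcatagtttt
F52C9.t1: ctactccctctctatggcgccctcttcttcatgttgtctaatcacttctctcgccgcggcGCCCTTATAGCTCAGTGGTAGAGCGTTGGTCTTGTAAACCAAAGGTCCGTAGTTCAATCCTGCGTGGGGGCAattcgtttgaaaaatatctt
C33G3.t2: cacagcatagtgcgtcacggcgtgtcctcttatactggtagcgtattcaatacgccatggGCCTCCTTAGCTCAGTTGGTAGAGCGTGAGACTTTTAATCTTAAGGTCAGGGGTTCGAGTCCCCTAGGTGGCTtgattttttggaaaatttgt
C04E7.t1: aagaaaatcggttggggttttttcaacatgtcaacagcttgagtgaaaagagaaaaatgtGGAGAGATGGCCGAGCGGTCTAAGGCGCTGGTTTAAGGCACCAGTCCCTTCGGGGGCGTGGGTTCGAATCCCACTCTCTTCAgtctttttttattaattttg
F41D9.t3: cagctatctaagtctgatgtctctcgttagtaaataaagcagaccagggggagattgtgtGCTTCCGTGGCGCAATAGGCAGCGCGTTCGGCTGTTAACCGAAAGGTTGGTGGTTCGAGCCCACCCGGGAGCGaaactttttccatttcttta
Counted from 1 at the left of each line, the summit fell on base 6 for R04A9.t1, base 24 for C28G1.t1, base 14 for F52C9.t1, base 7 for C33G3.t2, base 27 for C04E7.t1 and base 22 for F41D9.t3. All 6 summits were thus in the lower-case stretch before the gene. Of these 6 sequences, F41D9.t3 alone had one of the 4 FoxA words searched, GTAAATA, from base 30. The gene bodies of C28G1.t1, C33G3.t2, C04E7.t1 and F41D9.t3 held the B box word GTTCGANNC, starting at bases 112, 113, 122 and 113; those of R04A9.t1 and F52C9.t1 did not have these exact letters.

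For contrast, sup-29 had the lowest signal of all members, 8.32. It encodes a tryptophan tRNA and is at chrIV:3681860-3682011, minus strand; its summit fell on base 48. The other 2 sequences are tRNA genes with no summit within 200 bp, whose gene bodies are letter for letter those of the 2 highest members. Y49E10.t1, at chrIII:12399889-12400040, minus strand, has the gene sequence of R04A9.t1. C44B7.t1, at chrII:6898134-6898285, plus strand, has that of C28G1.t1.
sup-29: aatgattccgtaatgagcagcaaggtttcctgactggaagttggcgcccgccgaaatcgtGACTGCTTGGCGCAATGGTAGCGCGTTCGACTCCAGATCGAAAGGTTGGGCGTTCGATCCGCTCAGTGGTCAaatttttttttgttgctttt
Y49E10.t1: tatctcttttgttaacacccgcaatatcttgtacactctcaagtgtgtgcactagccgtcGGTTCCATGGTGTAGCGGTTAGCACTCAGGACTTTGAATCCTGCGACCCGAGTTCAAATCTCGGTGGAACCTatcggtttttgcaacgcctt
C44B7.t1: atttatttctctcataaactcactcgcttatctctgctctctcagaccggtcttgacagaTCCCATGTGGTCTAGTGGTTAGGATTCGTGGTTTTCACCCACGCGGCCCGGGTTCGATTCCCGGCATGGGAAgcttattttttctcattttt
The capitals of Y49E10.t1 and R04A9.t1 are the same, as are those of C44B7.t1 and C28G1.t1, while the stretches before them differ. The same internal promoter letters were therefore found at the gene nearest the highest member and at a gene with no summit within 200 bp. The summit at R04A9.t1 lay 198 bp from the gene, near the edge of the rule, and that at C28G1.t1 37 bp from it. Both also lay in a protein-coding promoter window, from 1000 bp before to 200 bp after a protein-coding 5′ end. Whether their signal belongs to the tRNA gene was not tested.

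The regions beside tRNA genes were mid to high in the pooled list rather than at its top. Signal, the authors' value for each region on a scale that is not stated, had a median of 58.0 over the 285 members, with a range from 8.32 to 203 and quartiles of 31.0 and 87.2. The other 29715 pooled regions had a median of 18.1, so the ratio of medians was 3.21. The 185 regions beside snoRNA or snRNA genes, other short non-coding genes, had a median of 57.8, and the 4785 within 200 bp of a protein-coding 5′ end 35.99. Against the regions beside snoRNA or snRNA genes the members' ratio was thus 1.00 in the pooled list, 0.669 in replicate 1 and 0.898 in replicate 2. Those replicate values are of regions matched to the pooled ones by summit. Matched in the same way, the members' ratio to all other pooled regions was 2.15 in replicate 1 and 2.18 in replicate 2. In each replicate's own list, summits near tRNA genes were also found afresh. There the ratio to all other regions of the list was 3.17 in replicate 1 and 2.46 in replicate 2. No member was among the 100 highest regions and 4 were among the 1000 highest. Another 29 came after those within the 2500 highest, another 79 within the 5000 highest and another 71 within the 7500 highest. The distribution of pooled signal shows the members as a hump at intermediate values. With 1 group there is no test between conditions, and the share over all regions stands beside each count instead.

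**Figure D1:**
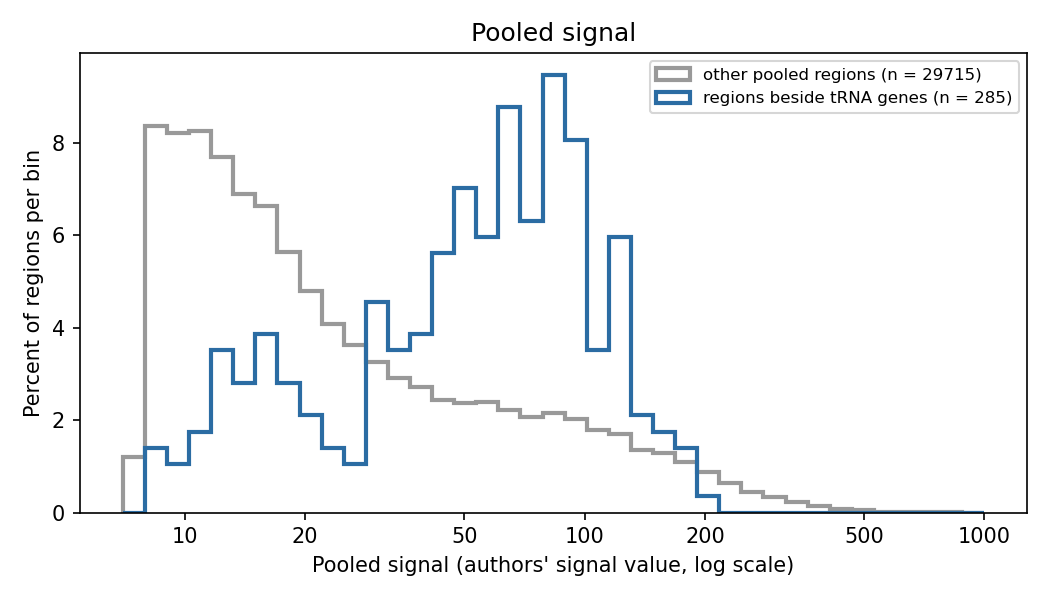
Pooled signal on a log axis, in the authors' units, against the percent of regions per bin, for the 285 regions beside tRNA genes (blue) and the other 29715 pooled regions (grey). The members have a median of 58.0 and end at 203, while the other regions have a median of 18.1 and a tail that goes further to the right.

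Most members also overlapped a peak that passed the authors' reproducibility step. Of the 285, 203 (71.2%, 95% Wilson interval 65.7 to 76.2%) overlapped a peak of the optimal list of 7847 peaks by at least 1 bp, against 28.7% of all pooled regions. Of the regions beside snoRNA or snRNA genes 64.3% (57.2 to 70.9%) did so, and of those at protein-coding 5′ ends 48.9% (47.5 to 50.4%). With the summit required to lie inside the optimal peak, the share was 66.3% of members and 26.2% of all pooled regions. The share beside tRNA genes was above that at protein-coding 5′ ends, and its interval overlapped that beside snoRNA and snRNA genes. Among regions that overlapped the optimal list, however, the members were not the higher ones: their median signal was 73.3 against 78.9 for the other 8397, a ratio of 0.929. The higher median over the whole pooled list therefore turned to a slightly lower one within the optimal list. Intervals cover the counting of regions or genes only, since the number of reads behind each value is unknown.

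Both replicates held most of the members. A region in the replicate's own list with its summit within 200 bp was found in both replicates for 243 members (85.3%), against 54.5% of all pooled regions. Of the rest, 13 were in replicate 1 alone and 29 in replicate 2 alone, and none was in neither. Of the regions beside snoRNA or snRNA genes, 76.8% (70.2 to 82.3%) were found in both replicates. Among regions that overlapped the optimal list, 92.6% of members and 94.8% of the others were. To set the replicates side by side, each signal was divided by that replicate's median over regions matched to optimal peaks, 28.4 in replicate 1 and 57.6 in replicate 2. On this relative scale the mean of both replicates had a median of 0.767 over the 243 members and ran from 0.134 to 2.32. The coefficient of variation between replicates had a median of 22.1% over members and 25.1% over 16113 other regions.

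Signals of the 243 members in the replicates followed each other, with Pearson's r of 0.691 on log10 values and Spearman's rho of 0.693, given as a description across regions of 2 libraries. Over the 16113 other regions r was 0.813. Within the optimal list it was 0.492 over the 188 matched members and 0.693 over 7963 other regions. Relative means there ran from 0.202 to 2.32 over members and from 0.118 to 9.86 over the others. Since r depends on that range, the r values do not compare the spread between replicates. The median coefficient of variation there was 18.8% over members and 20.3% over the others. Some members share a match: 20 of the 243 were paired with a replicate region that another member was also paired with, and r was 0.749 over the other 223. The clearest case was F57F5.t1, an isoleucine tRNA gene on V with a region at its 5′ end and another 210 bp downstream of that end. Their pooled signals were 144 and 42.0, both were matched to 1 region of signal 53.7 in replicate 1, and in replicate 2 they had separate regions of 86.3 and 8.31.

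**Figure D2:**
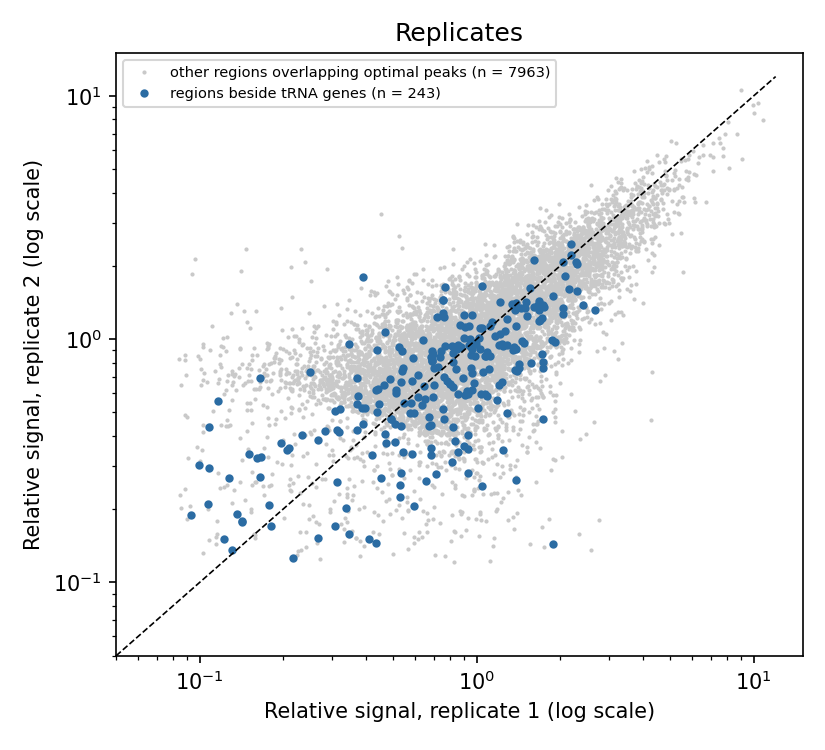
Relative signal in replicate 1 against replicate 2, both on log axes, for 243 regions beside tRNA genes (blue) and 7963 other regions that overlap optimal peaks (grey); the dashed line marks equal values. The members lie in the lower and middle part of the cloud, and none has a mean above 2.32.

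All 12 members of highest signal were found in both replicates. R04A9.t1 had a signal of 62.2 in replicate 1 and 141 in replicate 2, which is 2.32 ± 0.187 (SD, n = 2) on the relative scale, and ranked 1036 and 635 in those lists. C28G1.t1 had 62.2 and 127, or 2.20 ± 0.0134 (SD, n = 2). F52C9.t1 had 64.8 and 120, or 2.18 ± 0.143 (SD, n = 2). The relative means of these 3 members differed by less than the SD of R04A9.t1.

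C33G3.t2 had signals of 65.6 and 117, and a relative mean of 2.17 ± 0.192 (SD, n = 2). C04E7.t1 had 45.9 and 121, or 1.86 ± 0.348 (SD, n = 2). F41D9.t3 had 59.1 and 104, or 1.95 ± 0.192 (SD, n = 2). Neighbours in this order do not differ beyond the spread of their replicates.

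The replicates differed more in relative signal for C04A11.t1, a leucine tRNA gene on X, and M02F4.t1, one for glycine on X. C04A11.t1 had the highest replicate 1 signal of these 12 members, 76.0, and the lowest in replicate 2, 75.5, or 1.99 ± 0.965 (SD, n = 2) on the relative scale. M02F4.t1 had 68.6 and 79.8, or 1.90 ± 0.726 (SD, n = 2). The remaining 4 of the 12 highest were F47G6.t1 for arginine, C06G1.t1 for histidine and T03G6.t1 for glycine, with relative means of 2.06, 1.93 and 1.88, and the region at the 5′ end of F57F5.t1 with 1.69. In all, 9 of the 12 were on X, and C04A11.t1 was the one whose summit lay inside the gene. Regions of the pooled list are mostly 340 bp wide, and 16 members were narrower; 8 of these 16 were among the 12 highest.

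At the lower end, sup-29 had a replicate 2 signal of 10.5, or 0.182 on the relative scale, and no region in replicate 1. The sup genes are tryptophan tRNA genes known from mutations that read amber stop codons, and they were singled out after their values were seen. Of the 7 in the annotation, 5 had a summit. Pooled signal was 119 at sup-5 on III, 82.5 at sup-7 and 64.6 at sup-28 on X, 54.7 at sup-24 on IV and 8.32 at sup-29 on IV. No summit lay near sup-21 or sup-33, both on X. All 7 belong to a family of 10 identical tryptophan genes, so genes of the same internal sequence ran from no summit to a signal of 119.

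Summits crowded at the 5′ end of the tRNA gene. Measured from that end, with positive values in the direction of transcription, the median position was 10 bp and the quartiles were -24 and 64 bp. Of the 285 summits 129 (45.3%) were upstream of the gene, 104 (36.5%) inside and 52 (18.2%) downstream. The fullest stretch was from 40 to 20 bp upstream, with 63 summits. The 60 bp just upstream held 118 summits (41.4%) and the 60 bp just after the gene held 18. By length alone the 60 bp upstream make up 12.7% of the 472 bp window around a gene of median length.

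**Figure D3:**
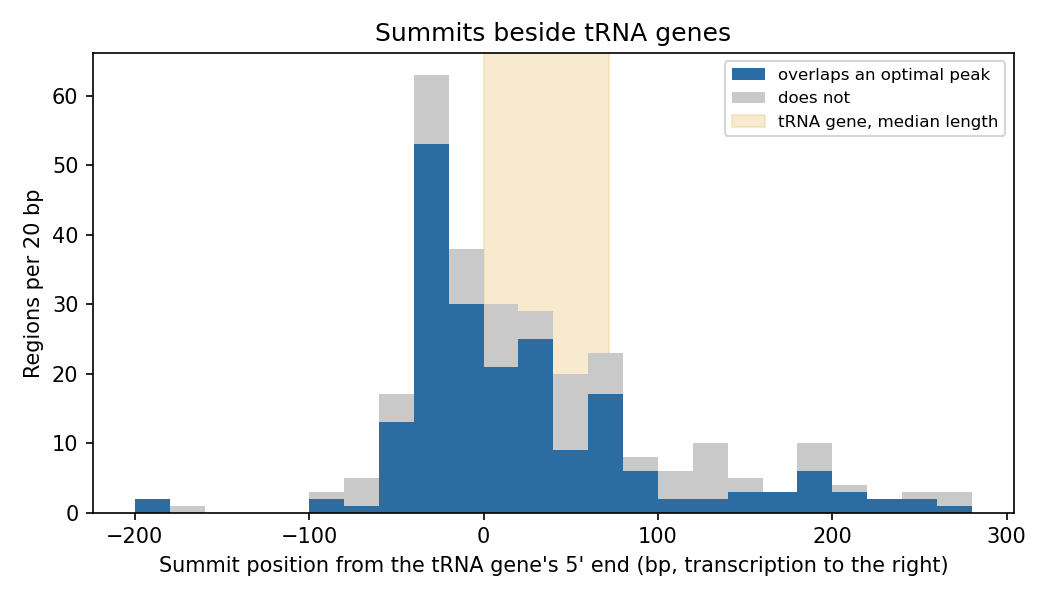
Number of summits per 20 bp by distance from the tRNA gene's 5′ end, in bp, with transcription to the right; blue regions overlap an optimal peak and grey ones do not, and the shaded band is a gene of median length, 72 bp. The highest bar, from 40 to 20 bp upstream, holds 63 summits.

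Position and signal went together. The 143 members at or above the members' median signal had a median position of -5 bp, with 8 summits (5.59%) downstream of the gene. The 142 below it had a median position of 35 bp, with 44 (31.0%) downstream. Median pooled signal was 72.1 upstream, 63.2 inside and 22.0 downstream. The share that overlapped the optimal list was 78.3%, 70.2% and 55.8% in the same order. In the replicates' own lists the median position was 9 bp in replicate 1 and 15 bp in replicate 2, with 46.1% and 44.1% of summits upstream. Regions beside snoRNA and snRNA genes had a median position of -25 bp and 61.1% upstream.

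How well short reads can be placed differs along the tRNA gene, and these values move with the position result. Of the 285 members, 146 (51.2%) had only 36-base windows that occur once in the genome within 50 bp of the summit, against 96.5% of all pooled regions. By position, all windows were unique for 74.4% of upstream, 1.92% of inside and 92.3% of downstream summits. Among the 146, which leave out nearly all summits inside genes by their sequence, the median position was -24 bp. The part of read placement in the position result was not tested, and no source used here says how the authors treated reads with several matches.

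Regions of high signal lay on both sides of the 200 bp limit. Of the members, 104 had a summit inside the gene, 128 lay outside it within 50 bp, 27 over 50 and up to 100 bp away, 17 up to 150 bp and 9 up to 200 bp. Beyond the limit there were 4 regions from 201 to 250 bp and 11 from 251 to 300 bp. Another 15 lay from 301 to 400 bp and 23 from 401 to 500 bp. The members farthest from their gene were thus about as sparse as the regions outside the rule. Just inside the limit were T28D6.t2 on III, at 198 bp with a signal of 28.6, and R04A9.t1, also at 198 bp with 203. Just outside were B0350.t1 on IV, at 217 bp with 222, and F09B9.t2 on X, at 224 bp with 294. The highest member was thus one of the farthest from its gene, and both regions just beyond the limit were higher than any member.

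A summit lay near 47.5% (43.6 to 51.5%) of tRNA genes, a higher share than in any other gene class compared here, against 26.5% over the 46890 nuclear genes of all classes. Next were lincRNA genes with 40.2% of 194, protein-coding genes with 39.0% of 19973 and snoRNA genes with 38.7% of 346, then antisense RNA genes with 38% of 100. The intervals of the lincRNA, snoRNA and antisense RNA genes overlapped that of the tRNA genes. The share was 29.1% of 7764 ncRNA genes, 27.9% of 129 snRNA genes, 24.9% of 261 miRNA genes, 10.1% of piRNA genes and 8.74% of pseudogenes. None of the 20 rRNA genes, which RNA polymerases I and III transcribe and which occur in repeats, had a summit (interval up to 16.1%). Genes of these classes differ in length, and a longer gene takes up more sequence within which a summit can fall. A summit of the optimal list itself was near 202 tRNA genes (33.0%).

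A smaller share of the members than of the other pooled regions lay by a protein-coding promoter. A protein-coding 5′ end lay within 200 bp of 13 of the 285 members and of 4785 of the other 29715 pooled regions. No member lay within 200 bp of a snoRNA or snRNA gene, and 185 of the other 29715 did, so this class is small in any case. The wider promoter window, which begins 1000 bp before a protein-coding 5′ end and stops 200 bp after it, held 74 members (26.0%), against 35.7% of the other pooled regions. Of the 12 highest members, those at R04A9.t1, C28G1.t1, C04E7.t1 and F57F5.t1 lay in such windows. The 211 members outside such windows had a median signal of 59.02 and the 74 within them 55.8. Of the members outside promoter windows 71.1% overlapped the optimal list, a share close to that of all 285.

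By chromosome, the members followed the tRNA genes. X held 137 members (48.1%, interval 42.3 to 53.9%), as it holds 45.1% of tRNA genes and 19.1% of pooled regions. A summit was near 145 of the 276 tRNA genes on X, or 52.5% (46.7 to 58.4%), and near 146 of the 336 on autosomes, or 43.5% (38.3 to 48.8%). The share was 51.6% on III, 49.3% on IV, 47.0% on I and 43.9% on II. V had the lowest, 22 of 78 genes or 28.2% (19.4 to 39.0%), an interval that overlaps those of I, II and IV and lies below those of III and X.

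**Figure D4:**
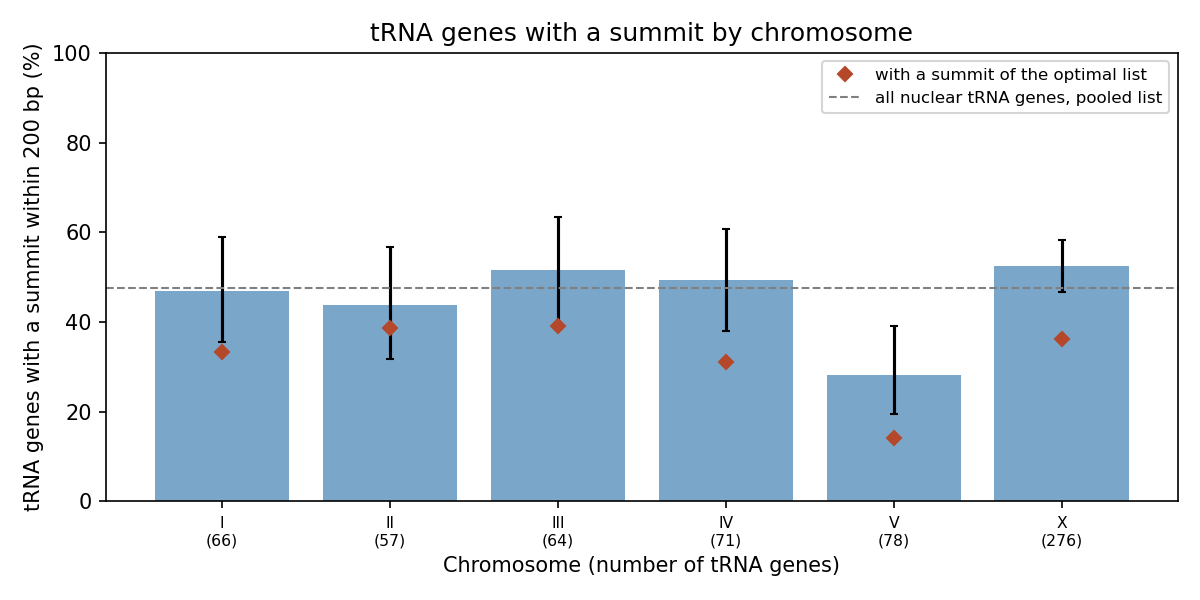
Percent of nuclear tRNA genes with a pooled summit within 200 bp, by chromosome (bars, with 95% Wilson intervals and the number of genes in brackets), and percent with a summit of the optimal list (diamonds); the dashed line is the share over all 612 genes, 47.5%. V is lowest at 28.2% and X highest at 52.5%.

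Members on V had a median pooled signal of 41.4, with 54.2% of 24 in the optimal list. In the replicates their medians were 21.7 and 24.0, against 21.6 and 37.2 over all autosomes, V included. These medians leave out members without a matched region: they cover 20 and 22 members on V and 134 and 140 of 148 on autosomes. Among matched members the lower level on V was thus seen in replicate 2 and not in replicate 1. On X the median was 59.8 with 72.3% in the optimal list, and on II 62.7 with 87.5% of 24. Over the autosomes together the median was 55.3, so X and the autosomes had like signals, with a ratio of medians of 1.09 in replicate 1 and 1.04 in replicate 2. The highest members by chromosome were F47G6.t1 on I with a pooled signal of 178, C27A2.t1, for isoleucine, on II with 125, and F52C9.t1 on III with 183. They were K08E7.t1, for lysine, on IV with 126, F57F5.t1 on V with 144 and R04A9.t1 on X with 203. V also has the largest share of single-copy tRNA genes, 34.6% against 20.7% on X. Among genes of 10 or more identical copies, a summit lay near 8 of 36 on V and 90 of 154 on X. It was 21 of 32 on I, 13 of 26 on II, 19 of 33 on III and 20 of 36 on IV. Among single-copy genes a summit lay near 9 of 27 on V and 21 of 57 on X. It was 2 of 12 on I, 6 of 17 on II, 3 of 14 on III and 8 of 16 on IV. V was thus lower than the other chromosomes in the first class and not set apart in the second.

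Identical copies of a tRNA gene were often split between genes with and without a summit. Of the 612 genes, 469 fall into 57 families of identical sequence, and 46 families held both kinds, 5 had a summit at every copy and 6 at none. The largest family, 29 glycine tRNA genes, had a summit at 17 copies, with pooled signals from 9.04 to 147. The next, 25 for lysine, had 10 from 11.7 to 126. The 24 for proline had 12, the 21 for aspartate 12 and the 20 for glutamate 12.

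tRNA genes with no identical copy had a lower share with a summit, and its interval did not reach that of the genes with many copies. It was 34.3% of 143 single-copy genes (27.0 to 42.4%) and 53.9% of 317 genes with 10 or more copies (48.4 to 59.4%), with 49.3% and 44.7% at 2 to 4 and 5 to 9 copies. The A box word was missing from 20 tRNA genes, and 3 of these had a summit. Single-copy genes account for 18 of those 20; of the other 125 single-copy genes, which have the A box word, 36.8% (28.9 to 45.5%) had a summit. A summit lay near 47.8% of the 441 genes that hold the B box word and 46.8% of the 171 that do not. A run of 4 T within 20 bp after the gene, the form of the terminator, was missing from 10 genes, of which 2 had a summit. The unique share of 36-base windows over the gene and 100 bp to each side had a median of 79.4% in genes with a summit and 79.7% in genes without. Over the gene alone the median was 0% in both groups, so windows within such genes did not tell copies apart. The part of read placement in the split of identical copies, the sup genes among them, was not tested.

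By the amino acid carried, the shares overlapped. RefSeq gave an amino acid for 607 of the 612 genes. Among amino acids with 10 or more genes, the highest shares with a summit were 63.0% of 27 genes for aspartate (44.2 to 78.5%), 61.5% of 13 for cysteine and 60% of 20 for methionine. The lowest were 30% of 20 for asparagine (14.5 to 51.9%), 35.3% of 34 for alanine and 36.4% of 44 for arginine. The intervals of aspartate and asparagine overlapped. The order changed in the optimal list, where histidine genes had a summit in 15% of 20, against 50% in the pooled list. A single gene for selenocysteine tRNA had a summit in both lists.

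**Figure D5:**
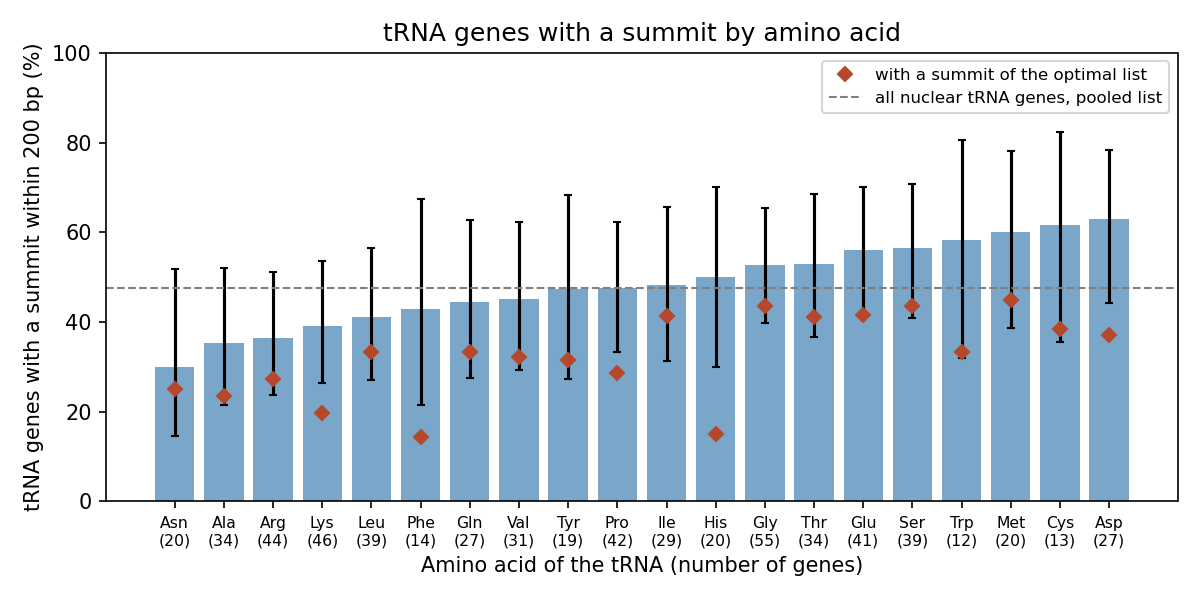
Percent of tRNA genes with a pooled summit within 200 bp by amino acid, for those with 10 or more genes (bars, with 95% Wilson intervals and the number of genes in brackets), and percent with a summit of the optimal list (diamonds). The bars run from 30% for asparagine to 63.0% for aspartate, and the intervals overlap.

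Clustered and lone tRNA genes had close shares with a summit, while the regions at clustered genes had the lower median signal in both replicates. A gene was called clustered if another tRNA gene lay within 1000 bp. Of 236 clustered genes 48.3% (42.0 to 54.7%) had a pooled summit, and of 376 lone genes 47.1% (42.1 to 52.1%). Of the members, 95 (33.3%) were at clustered genes, against 38.6% of all tRNA genes. Median pooled signal was 45.1 at clustered and 64.9 at lone genes; it was 16.6 and 24.2 in replicate 1 and 33.7 and 42.1 in replicate 2. A summit of the optimal list lay near 28.0% of clustered and 36.2% of lone genes. Neighbouring genes can share 1 region, so genes of a cluster are not independent.

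The larger clusters differed widely. The 6 genes of the F22F1 cluster on X, for serine, aspartate, methionine and isoleucine, all had a summit, from 4 regions of which the highest was 82.4. Of the 6 histidine genes of the F28H6 cluster on X 3 had a summit, from 2 regions with a highest signal of 17.4; neither was in the optimal list or in replicate 1. In the K01A12 cluster on X, of arginine and cysteine genes, 2 of 5 had a summit. All 5 glutamine genes of the H08J11 cluster on X had one. Clusters of 4 genes number 4, and 9 of their 16 genes had a summit. It was 1 of the 4 glycine genes of C12C8 on I, with a highest signal of 61.9, and 3 of 4 of Y65A5A on IV, with 38.0. It was 2 of the 4 tyrosine genes of R11 and 3 of the 4 valine genes of T01B4, both on X, each with a highest signal of 110.

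tRNA genes inside protein-coding genes had a lower share with a summit than the others, with intervals that just overlapped. Of 612 tRNA genes 290 (47.4%) lay wholly inside a protein-coding gene on either strand, 283 of them in introns only. A summit lay near 42.1% (36.5 to 47.8%) of these hosted genes and near 52.5% (47.0 to 57.9%) of the others. On X the shares were 40.6% (31.3 to 50.6%) of 96 hosted and 58.9% (51.6 to 65.8%) of 180 other genes. On autosomes the shares were 42.8% and 44.4%, with overlapping intervals. By strand, a summit lay near 42.5% of 167 genes on the strand of their host and 41.5% of 123 on the opposite strand alone. Of the members, 122 (42.8%) were at hosted genes, and their median signal was 63.3 against 54.4 at the others.

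The hosts were many and mostly held 1 member. There were 106, of which 91 held 1 member, 14 held 2 and 1 held 3. The host of 3 was ajm-1 on X, which encodes a protein of the apical junctions of epithelia. Its 5 tRNA genes are the H08J11 cluster, and the pooled signals of the 3 regions there were 45.1, 44.6 and 14.7; all 3 overlapped the optimal list. In replicate 1 the matched signals were 29.7, 4.70 and 4.70, the last pair from 1 shared region, and in replicate 2 they were 14.3, 39.8 and 15.6. The replicates thus put the highest signal on different regions of ajm-1. Hosts of the 12 highest members included spe-15, a myosin gene needed in sperm formation and host of F47G6.t1, and sulp-3, a gene of the sulphate permease family and host of F41D9.t3.

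FoxA words were found at the members in about the share of all pooled regions, and in a lower share than among other regions of high signal. The words were TGTTTAC or TGTTTGC or TATTTAC or TATTTGC, searched in both orientations up to 50 bp from each summit. They were found at 45 members (15.8%, interval 12.01 to 20.47%), against 14.4% of all pooled regions. In windows of the same size 500 bp to the left and right of the members the shares were 7.72% and 8.07%. Over all pooled regions those windows had 6.26% and 6.49%, so the higher share at the summit was not particular to the members. Over the 15000 regions of higher signal the members had 16.2% and all regions 20.8%, and in the replicates' own lists the members had 11.2 and 12.8% and all regions 14.2 and 13.9%. The members' share was thus slightly above that of all regions in the pooled list and below it in those lists. Within the optimal list the members had 17.2% (12.7 to 23.0%) and the other regions 24.9% (24.0 to 25.9%), so there the members were lower and the intervals did not overlap. Beside snoRNA and snRNA genes the share was 7.57%, and at protein-coding 5′ ends 18.6%.

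By position, a FoxA word was found at 12.4% (7.78 to 19.2%) of upstream and 13.5% (8.19 to 21.3%) of inside summits, and at 28.8% (18.3 to 42.3%) of the 52 downstream ones, with intervals that overlap. Median AT content of the same windows was 51.5%, 50.5% and 68.3% in that order, and 66.3% over all pooled regions; the part of base composition in the word counts was not tested. Some inside summits with a word were at identical genes. ZK563.t1, F36D4.t2, W02G9.t2, F25F6.t2 and R11B5.t1 belong to the same family of 15 identical threonine genes. Such copies are not independent sites, while the intervals for the FoxA shares count each as separate. Whether the words there lay in the letters of the gene was not tested. Signal was 64.9 in the median over members with a word and 55.9 over those without. The GA repeat GAGAGAGA, in either orientation, was found at 4 members (1.40%), against 2.71% of other regions. The B box word was within 50 bp of the summit at 71 members (24.9%) and at 62.5% of summits inside genes, a share that follows from the position of the genes used to choose the members.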

How the data were processed

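Per the labels, 2 biological replicates of strain OP37 were profiled by ChIP-seq, with a size range of 150 to 350. Per the manifests deposited with the samples, each replicate's list and the pooled list were called against the same control, and the optimal list came from them after an irreproducible discovery rate step. Aligner, peak caller, threshold and read depth are not stated in those sources. The deposited lists hold a signal of unstated scale per region, the authors' value, so comparisons stay inside 1 list or use values divided by a replicate median. The authors' q-value, as −log10, reaches a ceiling and was not used in any result, and the deposited summit column (column 10) gave the positions. Only the 4 lists on ce11 were used.

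Genes came from Ensembl release 115, and sequence, symbols and amino acids from RefSeq, both on WBcel235; anticodons were not used, so amino acids and families of identical sequence replaced them. Regions were counted once each as deposited; 23 rows of the pooled list, 1 of them a member, repeat coordinates. Replicate regions were matched by nearest summit within 200 bp. Intervals are 95% Wilson intervals. The members, lists and rules were chosen with earlier results of these data known. Named tRNA genes are the 12 highest members, the highest per chromosome, those at the distance limit, hosts of 3 or more members, the clusters of 4 or more genes, which takes in all those tied for the fifth place, and the amino acids at both ends; the sup genes, the F57F5.t1 pair, the selenocysteine and histidine genes and 2 hosts were added after their values were seen. Counting and positions were checked on 300 simulated regions, with 6 of 6 checks passed. Alternatives changed distances, lists, motif windows and cluster sizes. Figures were drawn with Matplotlib 3.10.9, and tables were handled with pandas 2.3.3 and SciPy 1.17.1 on NumPy 2.4.6 under Python 3.11.15.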

Additional observations from a re-analysis of the deposited data

How the results depend on the processing

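Of 63 alternatives, 35 moved a value by less than 1 SD between the replicates' own lists, and 28 moved it by more. Other limits applied to counts of regions or genes (within 1.5 times) and to the unique share (within its Wilson interval). For the replicate signal the limit was the median SD between replicates over members. The SD between the own lists rests on 2 lists and was small for some shares, 0.101 percentage points for the clustered share. Alternatives that use 1 replicate's own list are the values that gave this SD, so they are not judged independently of it. No paired analysis was possible because there is 1 group. With 1 replicate's own list in place of the pooled one, the regions numbered 297 to 358, tRNA genes with a summit 301 to 372, the optimal share was 54.2 to 68.0% (all regions of those lists 28.3 and 28.8%), the signal ratio 2.46 to 3.17, the X share 45.8 to 49.5%, the clustered share 31.8 to 32.0%, the host share 43.4 to 45.3%, the median position 9 to 15 bp and the FoxA share 11.2 to 12.8% (all regions 14.2 and 13.9%). With a distance limit of 100 bp the clustered share was 33.2%, the host share 44.4%, the median position 0 bp and the FoxA share 13.9%; with 500 bp the clustered share was 34.9% and the FoxA share 17.8%. Over the 15000 regions of higher signal the clustered share was 30.3%, the host share 44.4% and the median position 0 bp. Outside promoter windows the X share was 52.6%. Members with unique 36-base windows only, an alternative chosen after seeing the data, numbered 146, with a median position of -24 bp and a FoxA share of 19.2%. With windows of 50 bases, 64.2% of members were unique throughout. The signal ratio turned to 0.929 among regions that overlap the optimal list. The clustered share was 21.8% when clusters were cut at 500 bp (tRNA genes 27.8%) and 48.4% at 5000 bp (tRNA genes 53.1%). The host share on the same strand was 25.6% (tRNA genes 27.3%). These set shares of regions beside shares of genes, and a region near 2 tRNA genes counts once, so the 2 kinds need not match. Counted by gene, 48.3% of clustered and 47.1% of lone genes had a summit. The FoxA share was 24.2% within 100 bp (all regions 22.2%) and 4.91% for the single word TGTTTAC (all regions 3.80%). Depth is unknown, so how far it limits the weak members cannot be given, and 2 replicates limit every spread.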
